A study of Phycomyces blakesleeanus with 24 samples.

Results

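The light response of 36 genes for cytochrome c oxidase and ATP synthase was described in Phycomyces blakesleeanus, a filamentous fungus whose mycelium carries tall aerial stalks, the sporangiophores. The members are all genes whose symbol in the RefSeq gene table of assembly Phybl2 begins with COX, ATP or INH1, which gave 12 COX, 22 ATP and 2 INH1 genes among the 14490 genes listed in any of the tables. All 36 were listed in each table, so no member was lost to a filter on low values. RNA was sequenced from ΔL51, described only as a photoreceptors mutant with no gene named, and from the wild type, both grown on PDA in light or in darkness. Of 24 libraries the study dropped 4 whose dispersion was greater than that of their replicates, so the choice of libraries used the measured values, and 20 remained. Mutant sporangiophores had 3 libraries from light and 2 from darkness, and wild type sporangiophores 2 from light and 2 from darkness. Mutant mycelium had 3 libraries from light and 3 from darkness, and wild type mycelium 3 from light and 2 from darkness.

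Cytochrome c oxidase is the last complex of the mitochondrial respiratory chain. It passes electrons from cytochrome c to oxygen and pumps protons, and its catalytic core, encoded in the mitochondrial genome of fungi, is surrounded by small subunits encoded in the nucleus. ATP synthase lets protons flow back through a rotor in the inner membrane, and the turning central stalk drives ATP synthesis in a catalytic head that an outer stalk holds still. Small membrane subunits sit beside the rotor and, in budding yeast, some of them hold the enzyme in dimers. A small inhibitor protein, INH1 in budding yeast, blocks the enzyme from running backwards as an ATPase. The roles given below are those of the budding yeast or animal genes of the same symbol.

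For each strain and structure, the authors' deposited table sets light against darkness, gene by gene, as a log2 fold change with an average log2 CPM (read counts scaled to library size), a likelihood ratio and an FDR (false discovery rate, the p-value adjusted over all genes). A positive fold is taken to mean a higher level in light because the table titles name light first, which could not be checked. The direction bears most on sporangiophores: all 842 genes called in both sporangiophore tables had opposite signs in the authors' deposited tables, and across all genes the folds of the strains had a Pearson r of -0.51. A sign reversed in 1 of these tables and an opposite response of the strains cannot be told apart here. Every direction given below, also within 1 strain and structure, therefore holds only if the titles give the direction. The same limit applies to every statement that sets the strains' sporangiophores against each other, or sporangiophores against mycelium. A gene is called where its FDR is under 0.05. Depth and the spread between replicates are unknown, since no value of a single library was analysed here, and p-values measure the spread between libraries that may not be separate cultures. The error printed after a fold is an approximate standard error, the absolute fold divided by the square root of its likelihood ratio. No library enters more than 1 table, but 3 of the 4 tables list the same log2 CPM for all 14410 genes and appear to come from one fit, while the table of mutant mycelium shares none of these values. No marker of either structure could be checked, because the symbol table names none.

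In mutant sporangiophores most members were lower in light. Called lower were 23 of 36 members and called higher 0, by the authors' deposited table, where 12.3% of all genes and 28.1% of genes of like log2 CPM were called lower, and 3.31% and 1.73% higher. Genes of like log2 CPM are the 3402 other genes that lie between the lower and upper quartile of the members, log2 CPM 5.84 to 8.88. Members outside it, such as ATP5 at 10.26, have no genes of their own level there. The median fold of other genes fell from -0.03 at log2 CPM 5.87 to -1.87 at 9.46. With the median of the genes nearest in log2 CPM taken out, the members' median was -1.01, beside -1.85 as deposited. The median of the range therefore overstates the members' distance from genes of their own level. Ranges set this way are used below, also with span, with shares not matched to each member. In bulk RNA, fewer cells or hyphae of a kind and less RNA for each cannot be told apart. The ATP and INH1 genes made up 15 of these calls among 24, with a median log2 fold change of -1.64, and the COX genes 8 among 12, with a median of -2.05, where all genes had a median of 0.05 and genes of like log2 CPM -0.24 in the authors' deposited table.

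All 4 outer stalk genes of ATP synthase were called lower in mutant sporangiophores in the authors' deposited table. ATP5, the subunit that joins the outer stalk to the head, fell by 4.67 ± 0.53 on the log2 scale (25.5-fold lower in light, FDR 8.7e-17, log2 CPM 10.26) in the authors' deposited table. Its interval of -5.71 to -3.63 does not reach those of ATP4 (-1.998 ± 0.33), ATP4_2 (-2.22 ± 0.39) and ATP7 (-1.96 ± 0.37), the other genes of that stalk, in the authors' deposited table. Among the 8 small membrane subunits 6 were called lower in the authors' deposited table. ATP17_2, a copy of the gene for subunit f, fell by 4.31 ± 0.38 (FDR 8.2e-28, log2 CPM 9.36) and ATP20, subunit g, by 3.80 ± 0.39 (FDR 1.1e-20, log2 CPM 8.998) in the authors' deposited table. ATP17 (-3.62), ATP18_2 (-3.28), ATP19 (-2.32), subunit k, and ATP18 (-1.41, FDR 0.037), subunit i/j, were also called lower in the authors' deposited table. The 2 genes not called were both ATP21 copies, named for subunit e, the partner of subunit g in budding yeast, with 1.10 ± 0.47 (FDR 0.10) for ATP21 and -0.79 ± 0.44 (FDR 0.25) for ATP21_2 in the authors' deposited table.

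Fewer calls fell on the catalytic head and its rotor. Of 7 head and rotor genes, 2 were called lower in mutant sporangiophores in the authors' deposited table. These were ATP15, the epsilon subunit of the central stalk, at -3.52 ± 0.54 (FDR 1.4e-09, log2 CPM 8.01), and ATP16_2, a delta subunit copy, at -1.18 ± 0.29 (FDR 4.6e-04), in the authors' deposited table. ATP1 (-0.72 ± 0.37) and ATP2 (-0.83 ± 0.34), the alpha and beta subunits that form the catalytic sites, and ATP3 (-0.33 ± 0.31), the gamma shaft, had no call in the authors' deposited table. Whether the head genes differ from the other members was not tested. Of the assembly factors, ATP10 (-1.54, FDR 0.0035) and ATP11 (-1.74, FDR 8.1e-04), which binds the beta subunit in budding yeast, were called lower and ATP12 (-0.29), which binds the alpha subunit, was not, in the authors' deposited table. INH1 fell by 2.57 ± 0.42 (FDR 1.7e-08, log2 CPM 5.86), and its copy INH1_2 had 0.08 ± 0.35 (FDR 0.92, log2 CPM 6.93) in the authors' deposited table.

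Among the COX genes of mutant sporangiophores, 8 of 10 structural subunits and 0 of 2 assembly factors were called lower in the authors' deposited table. COX6B_2 fell by 4.04 ± 0.51 (16.5-fold lower in light, FDR 8e-14, log2 CPM 8.96) and COX9 by 2.92 ± 0.501 (FDR 1.2e-07, log2 CPM 7.24), and COX6A, at -2.50 ± 0.41, was also called (FDR 2.5e-08, log2 CPM 9.37) in the authors' deposited table. COX4_2, COX5B, COX5A, COX6B and COX9_2 were called lower with folds of -2.49, -2.47, -2.05, -2.04 and -1.68 in that order in the authors' deposited table. COX4 and COX7A were the subunits not called, with 0.08 ± 0.35 and 0.05 ± 0.303 in the authors' deposited table, and COX11, which brings copper to the enzyme, had -1.01 ± 0.45 (FDR 0.12) and COX15, which makes its heme a, 0.43 ± 0.34 (FDR 0.46). With the running median of the 500 genes nearest in log2 CPM taken out, 15 members were called lower and 2, COX4 (1.31) and COX7A (1.19), were called higher. Under that setting 1409 of all 14410 genes were called lower and 611 higher. The COX median was then -1.13 and that of ATP and INH1 genes -0.83. With span taken out as well, COX5A stood at 0.045 (adjusted p = 0.96). When an F distribution replaced the chi-square, 21 members were called lower, and COX6B (adjusted p = 0.061) and ATP18 (adjusted p = 0.11) were not. It called 1384 of all 14410 genes lower and 130 higher. Here and below, the F distribution has 12 degrees of freedom, the 20 libraries less the 8 groups, as if all tables came from one fit. A fit without mutant mycelium would have fewer, which was not run.

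In wild type sporangiophores the members had the opposite sign, as the tables are titled. Called higher in light were 19 of 36 and called lower 0, by the authors' deposited table, where 7.23% of all genes and 17.9% of genes of like log2 CPM were called higher, and 1.18% and 0.794% lower. The ATP and INH1 genes made up 13 of these calls, with a median log2 fold change of 1.53, and the COX genes 6, with a median of 1.31, where all genes had -0.05 and genes of like log2 CPM 0.22 in the authors' deposited table. With the median of the genes nearest in log2 CPM taken out, the median over all members was 0.62, beside 1.46 as deposited. The 0.22 therefore also overstates the members' distance from genes of their own level. All 4 outer stalk genes were called higher, with folds between 1.46 and 1.86, and 5 of 8 small membrane subunits, in the authors' deposited table. INH1 rose by 2.67 ± 0.45 (6.35-fold, FDR 5.6e-07), ATP17_2 by 2.35 ± 0.40 (FDR 1.1e-06) and ATP15 by 2.26 ± 0.55 (FDR 0.0012) in the authors' deposited table. ATP20 (2.25), ATP17 (2.24) and ATP18_2 (2.10, FDR 5.6e-08) followed, and INH1_2 was not called (0.34 ± 0.38, FDR 0.72), in the authors' deposited table.

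Of the head and rotor genes in wild type sporangiophores, ATP15, ATP15_2 (1.76 ± 0.56, FDR 0.025) and ATP16 (1.15 ± 0.37, FDR 0.026) had a higher call in the authors' deposited table. ATP2 (0.23 ± 0.43) and ATP3 (0.23 ± 0.38) had none, and ATP1 stood near the threshold with 1.32 ± 0.47 (FDR 0.056), in the authors' deposited table. The 3 ATP synthase assembly factors and the 2 COX assembly factors were not called, and their folds lay between 0.04 for ATP12 and 1.82 ± 0.76 for ATP11 (FDR 0.13) in the authors' deposited table. COX9 rose by 2.53 ± 0.58 (FDR 5.5e-04), COX6B_2 by 2.35 ± 0.55 (FDR 7.2e-04) and COX5B by 1.98 ± 0.49 (FDR 0.0015, log2 CPM 8.87) in the authors' deposited table. COX6A (1.78), COX4_2 (1.55) and COX5A (1.28) were also called higher, and COX4 (0.05) and COX7A (-0.11) were again without a call, in the authors' deposited table. These counts depend on the scale used. With the F distribution 8 ATP and INH1 genes and 3 COX genes were called higher, beside 476 of all 14410 genes higher and 6 lower. With the median of the 500 genes nearest in log2 CPM taken out, 3 ATP and INH1 genes and 2 COX genes were called higher and 1 COX gene, COX7A (-1.18), lower, and the medians were 0.48 for ATP and INH1 genes and 0.80 for COX genes. Under that setting 453 of all 14410 genes were called higher and 199 lower.

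**Figure D1:**
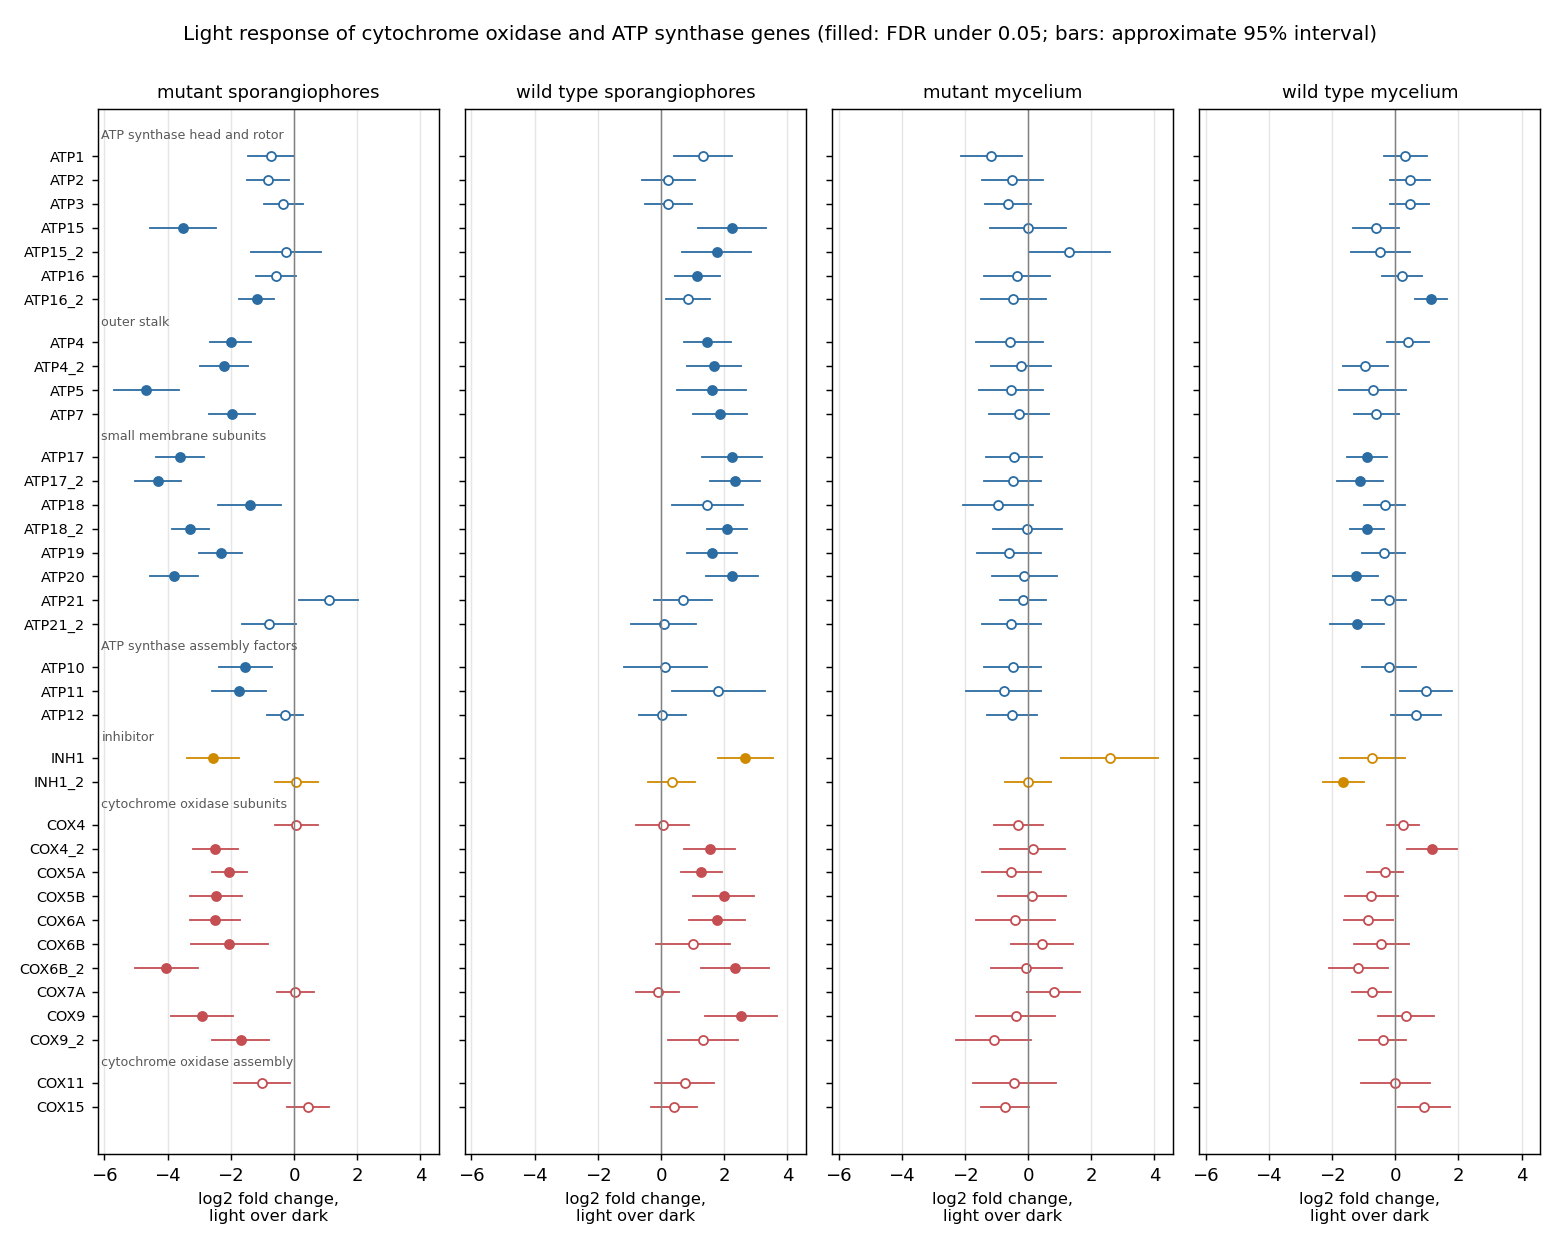
Log2 fold change of light over dark (horizontal axis) for each of the 36 members (rows, by role) in mutant sporangiophores, wild type sporangiophores, mutant mycelium and wild type mycelium; points are the authors' deposited folds, filled where the FDR is under 0.05, and bars are approximate 95% intervals. In mutant sporangiophores 23 members are filled on the lower side, in wild type sporangiophores 19 on the higher side, and in mutant mycelium 0 are filled.

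The difference between the strains was then tested for each gene in sporangiophores, as the fold of the mutant minus the fold of the wild type over their joint approximate standard error, with Benjamini-Hochberg adjustment over 14401 genes. The difference was below 0 and passed an adjusted p of 0.05 for 25 of 36 members and was above 0 for 0, where 14.0% of all genes and 32.7% of genes of like log2 CPM passed below 0, and 5.55% and 3.35% above. These were 16 of 24 ATP and INH1 genes and 9 of 12 COX genes, and the median difference over members was -3.19. Among the 758 genes of both like log2 CPM and like gene span (503 to 1301.5 bases), 60.9% passed below 0 and 1.19% above. With the sign of the mutant table turned, an alternative chosen after seeing the data, the difference passed for 2 of 36 members, both above 0, and the median was 0.44; of all genes 1.9% then passed above 0 and 0.278% below. The 3 largest belonged to ATP17_2 (-6.66 ± 0.55, adjusted p = 9.1e-31), COX6B_2 (-6.39 ± 0.75, adjusted p = 7e-16) and ATP5 (-6.27 ± 0.77, adjusted p = 1.4e-14). With the mutant sign turned these were 1.95 ± 0.55 (adjusted p = 0.027) for ATP17_2, 1.69 ± 0.75 (adjusted p = 0.36) for COX6B_2 and 3.07 ± 0.77 (adjusted p = 0.0072) for ATP5. By role, the difference passed for 4 of 4 outer stalk genes, 6 of 8 small membrane subunits, 4 of 7 head and rotor genes and 8 of 10 COX subunits. ATP1 passed here (-2.04 ± 0.60, adjusted p = 0.0051) although it was called in neither table. COX4 had 0.077 in the mutant and 0.049 in the wild type in the authors' deposited tables, a difference of 0.03 with an approximate 95% interval of -1.05 to 1.11. COX7A had 0.046 in the mutant and -0.11 in the wild type in the authors' deposited tables, a difference of 0.16 with an interval of -0.75 to 1.06.

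Called lower in the mutant and higher in the wild type were 17 members, which are 17 of the 23 called lower in the mutant and 17 of the 19 called higher in the wild type, in the authors' deposited tables. That is 47.2% of members, where 5.62% of all genes and 14.3% of genes of like log2 CPM showed both calls. With the mutant sign turned, all 17 would be called in the same direction in both strains. Across the 36 members the folds in mutant and wild type sporangiophores had a Pearson r of -0.79 (Spearman rho -0.82), and across the 3402 genes of like log2 CPM r was -0.76. These correlations are across genes that share libraries, which are not independent replicates, and the tables appear to share one fit. ATP10, ATP11, ATP16_2, ATP18, COX6B and COX9_2 were called in the mutant alone, and ATP15_2 and ATP16 in the wild type alone. Of these 8, the difference between strains passed for 6 and not for ATP10 and ATP15_2.

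**Figure D2:**
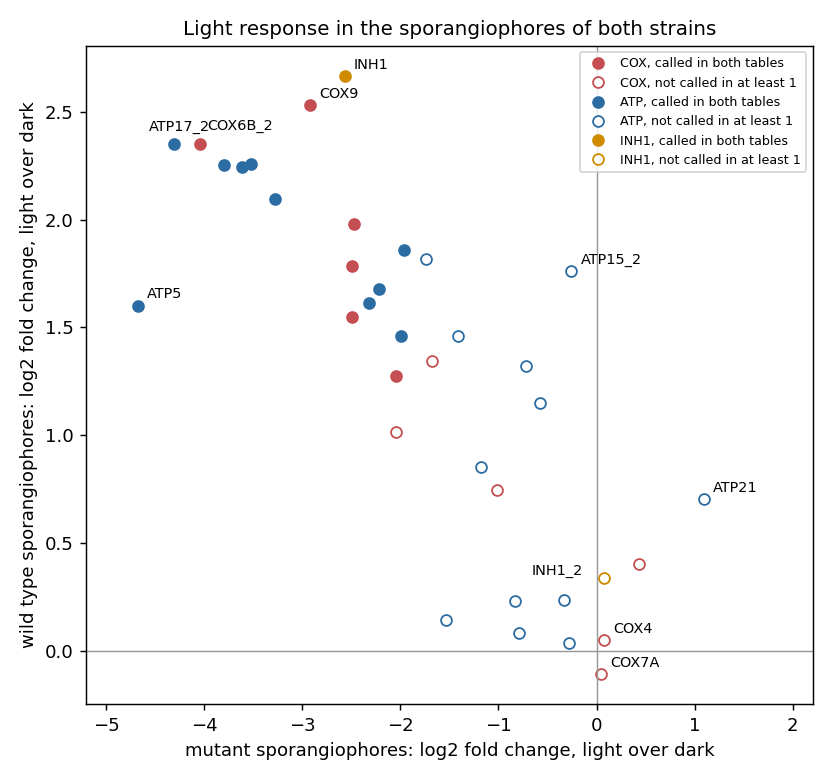
Log2 fold change of light over dark in mutant sporangiophores (horizontal axis) and in wild type sporangiophores (vertical axis) for the 36 members; filled points are the 17 members called lower in the mutant table and higher in the wild type table, and colours separate COX, ATP and INH1 genes. The points run from ATP17_2 and COX6B_2 at the upper left to COX4 and COX7A near 0 on both axes, and ATP21 lies apart at 1.10 and 0.70.

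Fewer members were called in mycelium. In mutant mycelium 0 of 36 members were called by the authors' edgeR test, with 3 at an unadjusted p under 0.05, where 0.541% of all genes were called higher and 0.576% lower, and 0.785% and 1.61% of the 2803 genes of like log2 CPM in that table, in the authors' deposited table. The medians were -0.48 for ATP and INH1 genes and -0.35 for COX genes, and 29 of 36 folds were below 0, where all genes had a median of 0, with 2793 folds of exactly 0, and genes of like log2 CPM -0.05, in the authors' deposited table. INH1 had 2.58 ± 0.78 (FDR 0.069) and INH1_2 0.0009 ± 0.37 (FDR 1) in the authors' deposited table. When the FDR was recomputed over genes with at least the median log2 CPM, an alternative chosen after seeing the data, INH1 passed (adjusted p = 0.038). ATP1 stood lowest at -1.17 ± 0.50 (FDR 0.35) in the authors' deposited table. Errors were larger in this table, with a median approximate standard error over members of 0.52. It was 0.39 in mutant sporangiophores, 0.44 in wild type sporangiophores and 0.37 in wild type mycelium. The lack of calls in mutant mycelium therefore does not show a lack of response.

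In wild type mycelium 6 members were called lower and 2 higher, where 4.18% of all genes and 10.3% of genes of like log2 CPM were lower, and 9.86% and 21.0% higher, in the authors' deposited table. The lower calls were 5 of the 8 small membrane subunits of ATP synthase and INH1_2 in the authors' deposited table. INH1_2 fell by 1.64 ± 0.34 (FDR 4e-05), ATP20 by 1.25 ± 0.37 (FDR 0.0076), and ATP21_2 stood at -1.21 ± 0.44 (FDR 0.041, log2 CPM 7.47), in the authors' deposited table. ATP17_2 (-1.11), ATP17 (-0.89, FDR 0.048) and ATP18_2 (-0.89, FDR 0.012) were the other 3 membrane subunits called lower in the authors' deposited table. Against this direction ATP16_2 rose by 1.14 ± 0.26 (FDR 2.7e-04, log2 CPM 7.33) and COX4_2 by 1.18 ± 0.403 (FDR 0.03, log2 CPM 5.84) in the authors' deposited table. INH1 had -0.72 ± 0.53 (FDR 0.46) and the other 11 COX genes were not called, COX6B_2 having the lowest fold at -1.17 ± 0.48 (FDR 0.085), in the authors' deposited table.

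The mycelium counts moved with the scale. The median fold of genes with a fold other than 0 was 0.39 in wild type mycelium, and relative to it 9 ATP and INH1 genes and 4 COX genes were called lower and ATP16_2 alone higher. Of all genes called in wild type mycelium 70.2% were higher as deposited and 40.3% after this centring. The centring called 1344 of all 14410 genes lower and 907 higher. With the F reference the calls that remained were INH1_2 lower and ATP16_2 higher, beside 241 of all genes lower and 756 higher. The strain difference in mycelium, mutant minus wild type, passed for 5 of 36 members. It was above 0 for INH1 (3.31 ± 0.94, adjusted p = 0.0069), INH1_2 (1.64 ± 0.501, adjusted p = 0.013) and COX7A (1.55 ± 0.53, adjusted p = 0.031), and below 0 for COX15 (-1.65 ± 0.57, adjusted p = 0.031) and ATP16_2 (-1.61 ± 0.58, adjusted p = 0.042). Of all 10462 genes tested 4.37% passed above 0 and 10.1% below, and of genes of like log2 CPM 6.6% above and 14.8% below. With a t distribution in place of the normal, 0 of the 5 passed; its 12 degrees of freedom are the 20 libraries less the 8 groups, as if all came from one fit, which the table of mutant mycelium does not appear to do.

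Within each strain, the light response was set between the structures as sporangiophores minus mycelium. In the mutant 15 of 36 members had a difference below 0 that passed and 0 above, where 10.4% of all genes and 16.4% of genes of like log2 CPM passed below 0, and 1.49% and 2.15% above. Among genes of both like log2 CPM and like gene span, 40.0% passed below 0 and 0.528% above, so the members' count is near that share. INH1 (-5.15 ± 0.88, adjusted p = 3.5e-07), ATP5 (-4.14 ± 0.74, adjusted p = 1.3e-06) and COX6B_2 (-3.98 ± 0.77, adjusted p = 8.8e-06) differed most. In the wild type 18 of 36 members had a difference above 0 that passed and 0 below, where 10.5% of all genes and 19.1% of genes of like log2 CPM passed above 0, and 9.44% and 12.8% below. Among genes of both like log2 CPM and like gene span, 43.8% passed above 0 and 3.83% below. COX6B_2 (3.52 ± 0.73, adjusted p = 4.7e-05), ATP20 (3.51 ± 0.56, adjusted p = 5.5e-08) and ATP17_2 (3.46 ± 0.55, adjusted p = 4e-08) differed most. INH1_2 passed in the wild type (1.98 ± 0.51, adjusted p = 0.0014), where it was called lower in mycelium and not called in sporangiophores. With the t reference 3 COX genes passed in the mutant in place of 6. With the sign of the mutant sporangiophore table turned, 21 members passed in the mutant, all above 0. The sign of the wild type sporangiophore table was not turned. The 18 wild type differences above 0 hold only if that table's title gives the direction.

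The symbol table lists a second copy for 10 of these genes, and the intervals of the copies did not overlap for 5 sets in sporangiophores of the mutant and 1 in those of the wild type, and for 1 set in mycelium of the mutant and 0 in that of the wild type. Reads that fit both copies could have been shared between them, which was not tested. In mutant sporangiophores both copies were called the same way in 5 sets, and 1 copy was called in 4 sets, in the authors' deposited table. Among genes like the members in log2 CPM and span, 54.2% were called lower there. Whether copies share a call more often than other pairs of genes was not tested. Both copies of ATP4 (ATP4_2 -2.22, ATP4 -1.998) and of ATP17 (ATP17_2 -4.31, ATP17 -3.62) fell by like amounts there, and both rose in wild type sporangiophores (ATP4_2 1.68 and ATP4 1.46, ATP17_2 2.35 and ATP17 2.24), in the authors' deposited tables. COX4_2 and COX4 stood at -2.49 and 0.08 in mutant sporangiophores, 1.55 and 0.05 in wild type sporangiophores and 1.18 and 0.25 in wild type mycelium, in the authors' deposited tables. COX4_2 was called in all 3 of these tables and COX4 in none, but their intervals did not overlap in mutant sporangiophores and overlapped in the other tables.

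INH1_2 and INH1 had 0.08 and -2.57 in mutant sporangiophores, 0.34 and 2.67 in wild type sporangiophores, 0.0009 and 2.58 in mutant mycelium, and -1.64 and -0.72 in wild type mycelium, in the authors' deposited tables. Their intervals overlapped in wild type mycelium and not in the other 3 tables. ATP15_2 and ATP15 were alike in wild type sporangiophores (1.76 and 2.26, both called) and apart in mutant sporangiophores (-0.26 and -3.52), in the authors' deposited tables. ATP18_2 and ATP18 had -3.28 and -1.41 in mutant sporangiophores and 2.10 and 1.46 in wild type sporangiophores in the authors' deposited tables. ATP21_2 and ATP21 had -0.79 and 1.10 in mutant sporangiophores, neither called, with intervals that did not overlap, in the authors' deposited table. COX6B_2 and COX6B (-4.04 and -2.04), COX9_2 and COX9 (-1.68 and -2.92) and ATP16_2 and ATP16 (-1.18 and -0.58) had overlapping intervals in mutant sporangiophores in the authors' deposited table. In wild type sporangiophores the intervals of 1 set, INH1, did not overlap. The difference between copies itself was not tested, because the covariance of 2 genes measured in the same libraries is not in the tables.

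**Figure D3:**
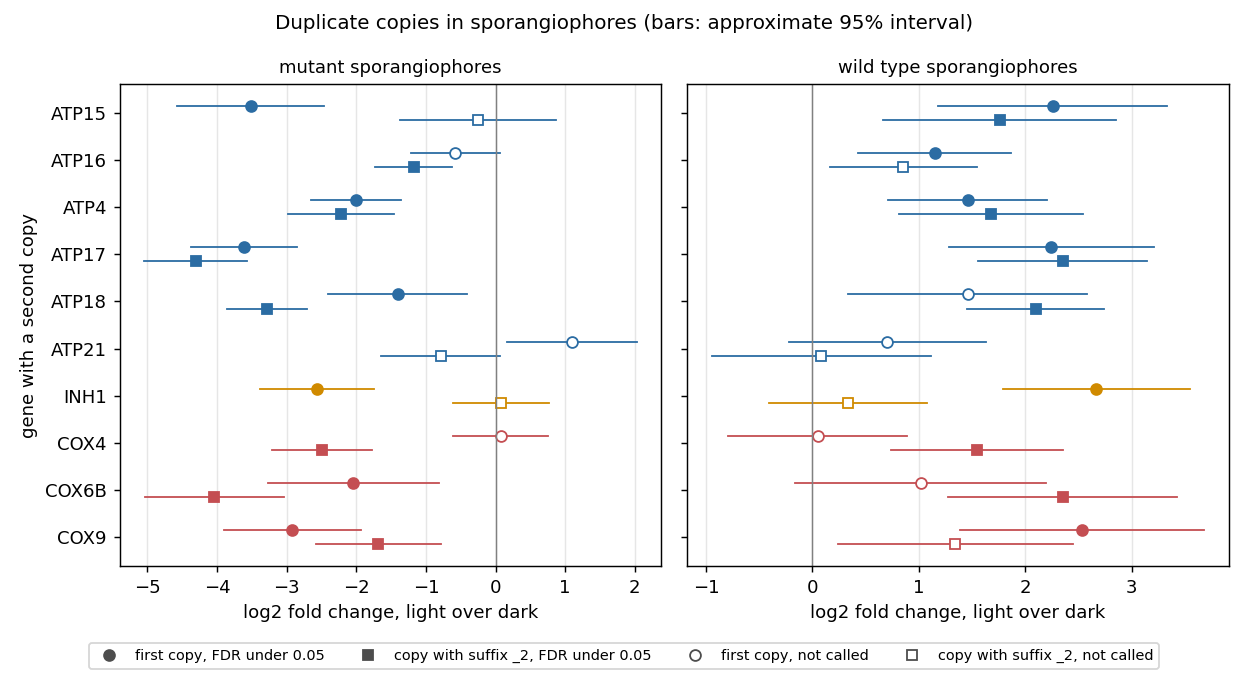
Log2 fold change of light over dark (horizontal axis) for the 10 genes with a second copy in mutant sporangiophores and wild type sporangiophores; circles are the first copy, squares the copy with suffix _2, filled where the FDR is under 0.05, with approximate 95% intervals as bars. In the mutant the intervals of ATP15, ATP18, ATP21, INH1 and COX4 copies do not overlap, and in the wild type those of INH1 do not.

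Most members had a high level and a short gene, neither of which the symbols fix. Their average log2 CPM ran from 3.97 to 10.26 with a median of 7.66, and 31 of 36 lay above the median of all genes, 4.64, in the authors' deposited table of mutant sporangiophores. Their gene spans ran from 171 to 2595 bases, and 30 of 36 were shorter than the median of 1400 bases for the genes of that table. Level moved with the folds of other genes in sporangiophores, and span did so among genes of like log2 CPM but hardly over all genes, where Spearman's rho between span and fold was 0.021 in the mutant and -0.037 in the wild type. Over windows of 500 genes the median fold in mutant sporangiophores was 0.63 at the lowest and -1.87 at the highest log2 CPM, and in wild type sporangiophores -0.60 at the lowest and 1.52 at the highest. Among genes of like log2 CPM, windows of 300 genes had a median of -1.28 at the shortest spans and 0.09 at the longest in mutant sporangiophores, and 1.02 at the shortest and -0.13 at the longest in wild type sporangiophores.

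Against genes of both like log2 CPM and like span (503 to 1301.5 bases, 758 genes), the members' shares stood closer to the background. In mutant sporangiophores 54.2% of such genes were called lower and 1.19% higher, beside 63.9% of members (66.7% of COX genes, 62.5% of ATP and INH1 genes), in the authors' deposited table. In wild type sporangiophores 37.1% of such genes were called higher and 0.396% lower, beside 52.8% of members, in the authors' deposited table. Both calls together were made for 32.5% of such genes. In mutant mycelium, where the range held 686 such genes, 1.02% had a higher call and 0.292% a lower one in the authors' deposited table. In wild type mycelium 20.3% of such genes were called lower and 10.3% higher, beside 16.7% and 5.56% of members, in the authors' deposited table. A strain difference in sporangiophores below 0 passed for 60.9% of such genes, and one above 0 for 1.19%, beside 25 and 0 of 36 members. In mycelium the strain difference passed above 0 for 12.4% and below 0 for 5.1% of such genes, beside 3 and 2 members. Sporangiophores minus mycelium passed below 0 for 40.0% and above 0 for 0.528% in the mutant, beside 15 and 0 of 36 members. In the wild type it passed above 0 for 43.8% and below 0 for 3.83%, beside 18 and 0 of 36 members. With the local median for log2 CPM and span taken out, 16 members were called lower and 5 higher (ATP16, ATP21, INH1_2, COX4 and COX7A) in mutant sporangiophores. Under that setting 1291 of all 14410 genes were called lower there and 538 higher. In wild type sporangiophores 1 member was called higher (INH1, 2.17) and 1 lower (COX7A, -1.49), beside 334 and 147 of all genes. Any further part of level and span in these results was not tested.

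**Figure D4:**
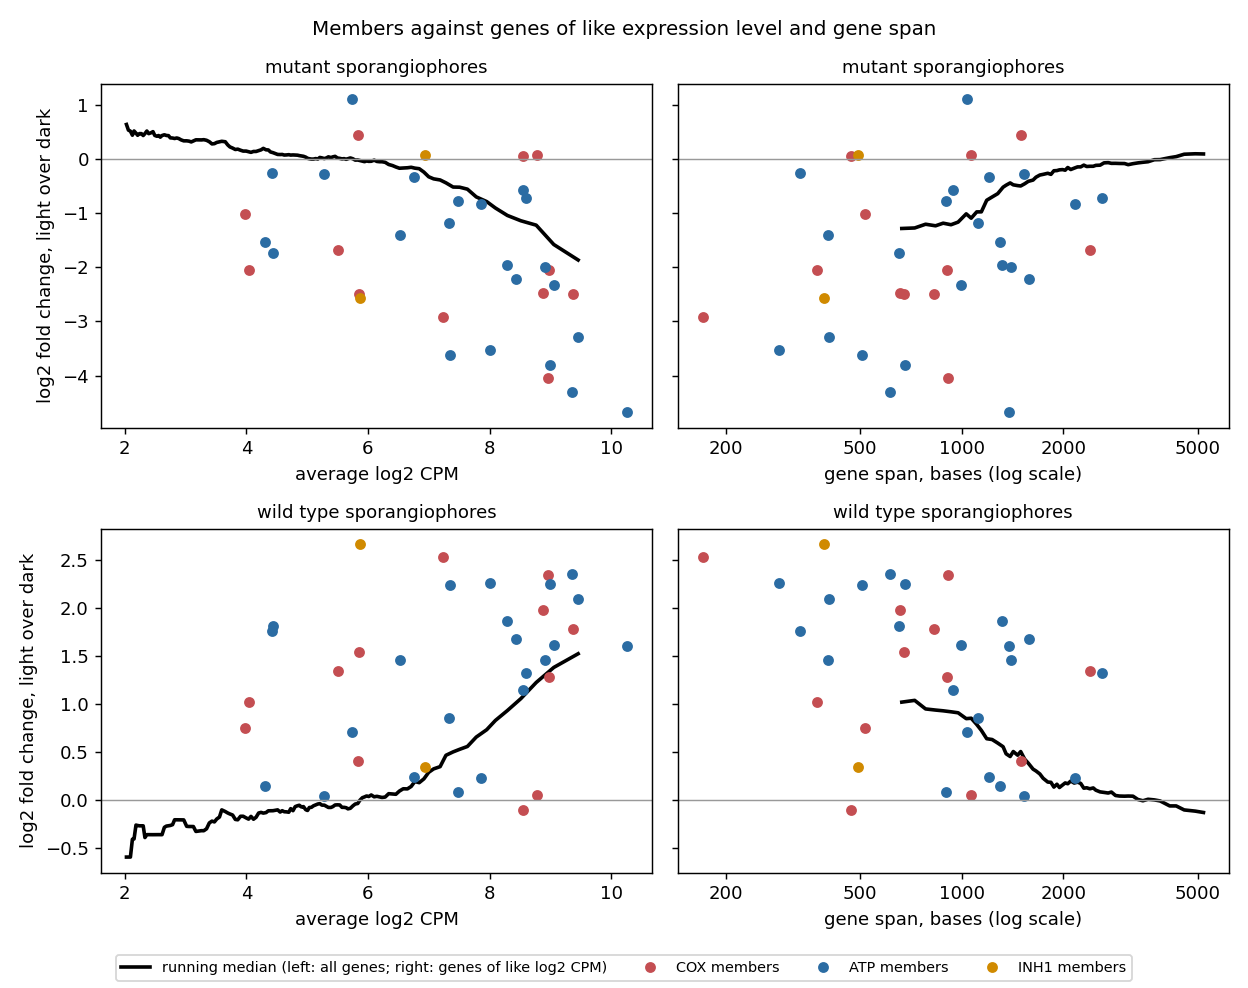
Log2 fold change of light over dark (vertical axis) against average log2 CPM (left) and gene span in bases on a log scale (right) for the 36 members in mutant sporangiophores (top) and wild type sporangiophores (bottom); the line is a running median of other genes, all genes at left and genes of like log2 CPM at right. The line runs to -1.87 in the mutant and 1.52 in the wild type at the highest log2 CPM, and COX4 and COX7A lie above it in the mutant and below it in the wild type.

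Genes of the other respiratory complexes, listed by symbol, mostly had calls in the same directions in sporangiophores. In mutant sporangiophores 12.3% of all genes were called lower and 3.31% higher, and in wild type sporangiophores 7.23% higher and 1.18% lower. Of genes like the COX, ATP and INH1 members in log2 CPM and span, 54.2% were lower in the mutant and 37.1% higher in the wild type. No genes were matched to the lists below, and whether these lists differ from other genes was not tested. Of 32 complex I genes, 25 were lower and 0 higher in mutant sporangiophores and in wild type sporangiophores 18 were higher with 0 lower, with medians of -1.48 in the mutant and 1.22 in the wild type, in the authors' deposited tables. Complex II had 4 of 5 lower in the mutant and 4 of 5 higher in the wild type in the authors' deposited tables. Complex III with cytochrome c had 11 of 15 lower and 1 higher in the mutant, and 8 higher and 1 lower in the wild type, in the authors' deposited tables. The alternative oxidase and alternative NADH dehydrogenases, which pass electrons around the proton-pumping complexes, had 3 of 9 lower in the mutant and 2 of 9 higher in the wild type, with medians of -0.58 in the mutant and 0.32 in the wild type, in the authors' deposited tables. In mutant mycelium 2 genes of these lists were called, 1 of complex I and 1 alternative enzyme, both lower, in the authors' deposited table. Of all genes there 0.576% were called lower and 0.541% higher. In wild type mycelium complex I had 1 higher and 4 lower, complex II 1 higher, complex III with cytochrome c 2 higher and 1 lower, and the alternative enzymes 2 higher, by the authors' deposited table. Of all genes there 9.86% were called higher and 4.18% lower.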

How the data were processed

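Trizol extraction and Message Amp-II amplification were used for both strains, per the labels' protocols. The submitters' processing notes name Bowtie and edgeR; build, annotation and counting rule are not given in the sources used here. Each deposited table lists, per the file headers, log2 fold change and average log2 CPM, with a likelihood ratio, here treated as a score. The deposited p-value of every gene equalled the upper chi-square tail of that ratio (tolerance 1e-06), and the deposited FDR its Benjamini-Hochberg adjustment.

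Row numbers were matched to Phybl2 locus tags (99.6% matched). Gene spans are the lengths in the Phybl2 gene table. No coordinates are printed, and no sequences were used. Members, lists and roles were chosen with earlier results of these data known. Full values are given, in each comparison, for the 3 COX and 3 ATP or INH1 genes with the largest called folds, both INH1 genes and called members against the main direction, and for the 3 largest called differences; other members are given by fold. The planned protein identities of copies could not be computed.

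Alternatives retested the folds after centring, after taking out local medians, with other reference distributions and with filters on log2 CPM (Python 3.11.15, scipy 1.17.1). Genes with a fold of exactly 0 have no standard error and stayed out of difference tests. On simulated folds with 200 changed genes among 14401, the strain difference in sporangiophores recovered 70.0% of differences of 2 and 100.0% of those of -4 (log2). A difference of 2 was recovered for 48.0% in the mycelium comparison (10462 genes), 57.0% within the wild type (11213 genes) and 61.0% within the mutant (11430 genes). The simulated noise had the same approximate standard errors that the test then used, so these shares do not check those errors. The changed genes were drawn only from genes of at least the median log2 CPM, so the shares do not cover genes of lower level.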

Additional observations from a re-analysis of the deposited data

Results flagged for a closer look

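Differences in the light response between comparisons passed the approximate test for the members below, with the direction of each fold taken from the table titles. Between the sporangiophores of both strains, mutant minus wild type, 16 ATP and INH1 genes and 9 COX genes passed, all below 0. The largest differences were those of ATP17_2 (-6.66), COX6B_2 (-6.39) and ATP5 (-6.27). Below 0 passed 14.0% of all genes and 60.9% of genes of like log2 CPM and span. With the sign of the mutant sporangiophore table turned, 2 members passed. In mycelium, mutant minus wild type, 3 ATP and INH1 genes and 2 COX genes passed, with INH1 at 3.31, COX15 at -1.65 and INH1_2 at 1.64. Of all genes 4.37% passed above 0 and 10.1% below, and with the t reference 0 of these members passed. Within the mutant, sporangiophores minus mycelium, 9 ATP and INH1 genes and 6 COX genes passed, with INH1 at -5.15, ATP5 at -4.14 and COX6B_2 at -3.98. All were below 0, where 10.4% of all genes and 40.0% of genes of like log2 CPM and span passed below 0. Within the wild type, sporangiophores minus mycelium, 13 ATP and INH1 genes and 5 COX genes passed, with COX6B_2 at 3.52, ATP20 at 3.51 and ATP17_2 at 3.46. All were above 0, where 10.5% of all genes and 43.8% of genes of like log2 CPM and span passed above 0. The wild type sporangiophore table was not tried with its sign turned.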

How the results depend on the processing

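No paired analysis was possible because the tables hold comparisons and no values per library. For the same reason leaving out each replicate in turn was not run. The filter at a log2 CPM of 0 removed no gene. The causes of the shifts below were not tested. With the local median for log2 CPM taken out, the median fold was -1.13 for COX and -0.83 for ATP and INH1 genes in mutant sporangiophores, and 0.80 and 0.48 in wild type sporangiophores, where 3 COX genes (2 higher, 1 lower) and 3 ATP and INH1 genes were called. With the local median for log2 CPM and span taken out, these medians were -0.71 and -0.61 in the mutant and 0.64 and 0.56 in the wild type, where 1 COX gene, lower, and 1 ATP or INH1 gene, higher, were called. COX5A then turned to 0.045 (adjusted p 0.96) in mutant and -0.20 (0.86) in wild type sporangiophores (-0.070 with log2 CPM alone), ATP16_2 to 0.075 (0.93) in the mutant and ATP16 to -0.28 (0.81) in the wild type. With the F reference 3 COX and 8 ATP and INH1 genes were called in wild type sporangiophores, and 0 COX and 2 ATP and INH1 genes in wild type mycelium. In wild type mycelium 4 COX genes, all lower, were called after centring, with an ATP and INH1 median of -0.81; 1 COX gene, lower, after the log2 CPM median was taken out; 2 COX genes (1 each way) and 3 ATP and INH1 genes after log2 CPM and span; and 2 COX genes (1 each way) among genes of at least the median log2 CPM, a filter added after seeing the data, which also called 1 INH1 gene in mutant mycelium. Among all 14410 genes of wild type mycelium, centring called 907 higher and 1344 lower. Taking out log2 CPM called 1026 higher and 1310 lower, and taking out log2 CPM and span 912 and 968. Of 7205 genes with at least the median log2 CPM there, 1465 were higher and 669 lower. In mutant mycelium 105 of 7121 such genes were higher and 106 lower. Of the strain differences in mycelium 0 COX and 0 ATP and INH1 genes passed with the t reference, and 1 COX gene with the log2 CPM medians taken out. Within the mutant 3 COX genes passed with the t reference. With the sign of the mutant sporangiophore table turned, added after seeing the data, the strain difference in sporangiophores passed for 0 COX genes and for 2 ATP and INH1 genes, above 0, and sporangiophores minus mycelium in the mutant for 7 COX and 14 ATP and INH1 genes, all above 0. The same was not run with the wild type sporangiophore table turned. Pooled over all alternatives, 273 results for single genes kept direction and call, 68 lost the call and 5 turned direction. This pool does not measure robustness. It holds 50 kept results from the filter at a log2 CPM of 0, which removed no gene. It also holds 48 from a cut at an absolute log2 fold of 1, which left the deposited folds unchanged. With log2 CPM and span taken out, 20 kept the call, 26 lost it and 4 turned direction. With log2 CPM alone taken out, 26 kept it, 23 lost it and 1 turned. With the local median for log2 CPM taken out, the share of higher calls among all called genes was 69.5% in wild type sporangiophores (86.0% as deposited), 43.9% in wild type mycelium (70.2%) and 38.5% in mutant mycelium (48.4%); centring gave 36.9% in mutant mycelium.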
